A study of Mus musculus with 30 samples.

Results

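The genes of the B cell receptor complex and of its first signaling steps were followed in mouse blood after x-ray exposure. The 9 members were Cd79a, Cd79b, Cd22, Ms4a1, Blk, Blnk, Bank1, Btk and Syk, chosen as the non-control probes of the array whose gene name is one of these symbols. All 9 were measured, by 14 of the 39429 non-control probes, and 13 of the 14 passed a filter on dim probes. They make up 9 of the 18724 genes tested. Male C57BL/6J animals of 3 genotypes, p38DKI, p38DN and p38WT, gave the blood, which was drawn by cardiac puncture into PAXgene solution. p38 is a stress-activated protein kinase, and the genotype names are used here as the labels write them. In each genotype 5 arrays came from mice given 7 Gy of x-rays and sampled 24 h later, and 5 from unirradiated mice, described as independent experiments. This gave 6 groups and 30 one-colour arrays. Neither the promoter or cell type behind a p38 allele nor the age of the mice is given in the sources used here.

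A level below is the log2 signal of a probe relative to the 75th percentile of its array, given as mean ± SD with n = 5 arrays a group. A change is the irradiated mean minus the unirradiated mean, with a standard error (SE) from a limma fit of all 30 arrays. A gene was called where its p, adjusted by Benjamini-Hochberg over the 18724 genes, was under 0.05, and every adjusted p below comes from that limma fit unless another test is named. Levels of different probes are not compared with each other. The number of arrays limits the precision. In whole blood, fewer cells of a type and less RNA per cell cannot be told apart.

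Antigen binding by a surface immunoglobulin is turned into a signal by a pair of attached chains, Ig-alpha (Cd79a) and Ig-beta (Cd79b), whose tails are phosphorylated by Src family kinases such as Blk and Lyn. Syk binds the phosphorylated tails, and the adaptor Blnk then gathers Btk and phospholipase C gamma, which leads to calcium release. Cd22 is an inhibitory coreceptor that recruits a phosphatase, Ms4a1 encodes the membrane protein CD20, and Bank1 is a scaffold protein of B cells. Most of these genes are used mainly by B cells, whereas Syk and Btk also act in myeloid cells and platelets. Circulating B cells are among the blood cells most sensitive to radiation.

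The arrays carry features other than dose that moved with some values. Slides were numbered by scan order. The p38DN arrays lay on slides 1 to 5, each holding 1 irradiated and 1 unirradiated array, and were scanned in an earlier period than slides 6 to 10, which held p38WT and p38DKI. The mean of 13 liver transcripts (15 listed, among them Alb, Apoa1 and Ttr) was 9.04 on p38DKI irradiated array 2, against -0.61 to 2.70 on the other p38DKI irradiated arrays and -1.13 to 3.89 on the p38DKI unirradiated arrays. In p38DN it lay between -0.68 and 3.98 on the irradiated arrays, while on the unirradiated arrays it was 7.05, 8.0 and 7.95 on arrays 2, 4 and 5 and 1.53 and 0.98 on arrays 1 and 3. On p38WT arrays it did not exceed 0.68. Unirradiated p38DN arrays 4 and 5 were the most alike of any 2 arrays (r = 0.990 across genes, with 0.987 for the next pair, p38WT unirradiated arrays 1 and 3), and were counted as separate samples, as labelled. Leaving out either changed no call of a fall in p38DN. Platelet and red cell markers were present on every array, with mean levels of 5.25 to 8.37 (8 platelet genes) and 2.55 to 7.74 (7 red cell genes). B cell markers (16 listed, 14 tested, with Cd79a, Cd79b and Ms4a1 among them) had mean levels of 1.47 to 3.35 on unirradiated arrays.

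Of the probes, 4 are printed: the only Blk probe, which is dim on irradiated arrays, and the second probes of Cd79a, Bank1 and Btk, which read a different stretch of the transcript from the probe used for the gene. Positions are those of build mm9 in the array files. The second Cd79a probe lies at chr7:25684357-25684614 on the plus strand, and its 60 bases cover 258 bases of genome, so it is split over the genome. The array files do not say which exon or UTR a probe lies in. The Blk probe lies at chr14:63997333-63998470 on the minus strand and covers 1138 bases. The second Bank1 probe lies at chr3:135727078-135727137 and the second Btk probe at chrX:131083955-131084014, both on the minus strand. Each is 60 bases long and is written 5′ to 3′ as on the array, all in lower case since no stretch is singled out.
Cd79a probe 2: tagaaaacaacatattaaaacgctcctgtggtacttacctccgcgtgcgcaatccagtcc
Blk probe: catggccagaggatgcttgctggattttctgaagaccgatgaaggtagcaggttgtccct
Bank1 probe 2: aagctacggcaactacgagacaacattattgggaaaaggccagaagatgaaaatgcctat
Btk probe 2: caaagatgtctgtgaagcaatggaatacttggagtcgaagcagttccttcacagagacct

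Promoters are shown for Cd79a and Blnk, a receptor chain and an adaptor whose transcripts moved together below. RefSeq windows of build GRCm38.p6 were at hand for 6 of the 9 members (Cd79a, Cd22, Blnk, Btk, Bank1 and Syk, with 2 windows for Syk), and the 250 bases before the annotated start were searched on both strands for 4 motifs known for B lineage transcription factors. These were the octamer ATGCAAAT, the E-box CAGGTG, the Ets-type motif CAGGAAGT and the EBF-type motif CCCNNGGG. They occurred in 1.6%, 17.2%, 2.69% and 11.8% of 32851 windows of the same length. Capitals mark the matches, which do not overlap each other in these windows. The Cd79a window is chr7:24897247-24897496 on the plus strand, and the Blnk window is chr19:40994222-40994471 on the minus strand.
Cd79a promoter: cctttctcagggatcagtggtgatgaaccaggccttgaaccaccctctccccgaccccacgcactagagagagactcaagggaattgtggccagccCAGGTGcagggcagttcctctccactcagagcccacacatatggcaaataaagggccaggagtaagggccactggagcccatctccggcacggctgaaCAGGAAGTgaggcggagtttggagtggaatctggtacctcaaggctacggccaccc
Blnk promoter: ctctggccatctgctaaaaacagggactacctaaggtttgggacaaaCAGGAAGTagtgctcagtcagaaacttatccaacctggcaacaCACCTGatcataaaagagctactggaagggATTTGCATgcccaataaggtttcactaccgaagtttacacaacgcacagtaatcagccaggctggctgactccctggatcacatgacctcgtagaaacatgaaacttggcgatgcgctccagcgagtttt
Both windows held the Ets-type motif, starting 56 bases before the start of Cd79a and 203 before that of Blnk, and both held an E-box. The octamer occurred in the Blnk window alone of the 7, on the opposite strand and 130 bases before the start. The EBF-type motif occurred in the Cd22 and Bank1 windows. Syk had an E-box in each of its 2 windows, and none of the 4 motifs occurred in the Btk window. These matches describe letters and not binding.

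Irradiated blood of all 3 genotypes held much less RNA of the receptor chains, the coreceptors, Blk and the adaptors, while Btk was called lower in p38DKI alone and Syk higher in p38DN alone, by less than 2-fold each. For these 2 genes neither the p38DKI nor the p38DN change was called different from the p38WT change. The changes in p38DKI and p38DN were not compared with each other. In p38DKI blood 8 of the 9 members were called lower, where 19.3% of all genes were. In p38DN blood 7 were called lower and 1 higher, where 10.3% of all genes were called lower and 17.6% higher. In p38WT blood 7 were called lower and none higher, where 12.1% of all genes were called lower. The median change of the 9 members was -3.39 in p38DKI, -2.02 in p38DN and -3.47 in p38WT, and that of all genes was -0.25, 0.01 and -0.03 in the same 3 genotypes. Blk is among the genes called lower in each genotype, but its probe passed the filter through the unirradiated groups, so its call is weaker evidence than the others. Apart from Blk, 7 of 8 members were called lower in p38DKI, 6 of 8 in p38DN and 6 of 8 in p38WT. The members were chosen with results of these arrays known, so these shares describe them and do not set them apart from other genes.

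**Figure D1:**
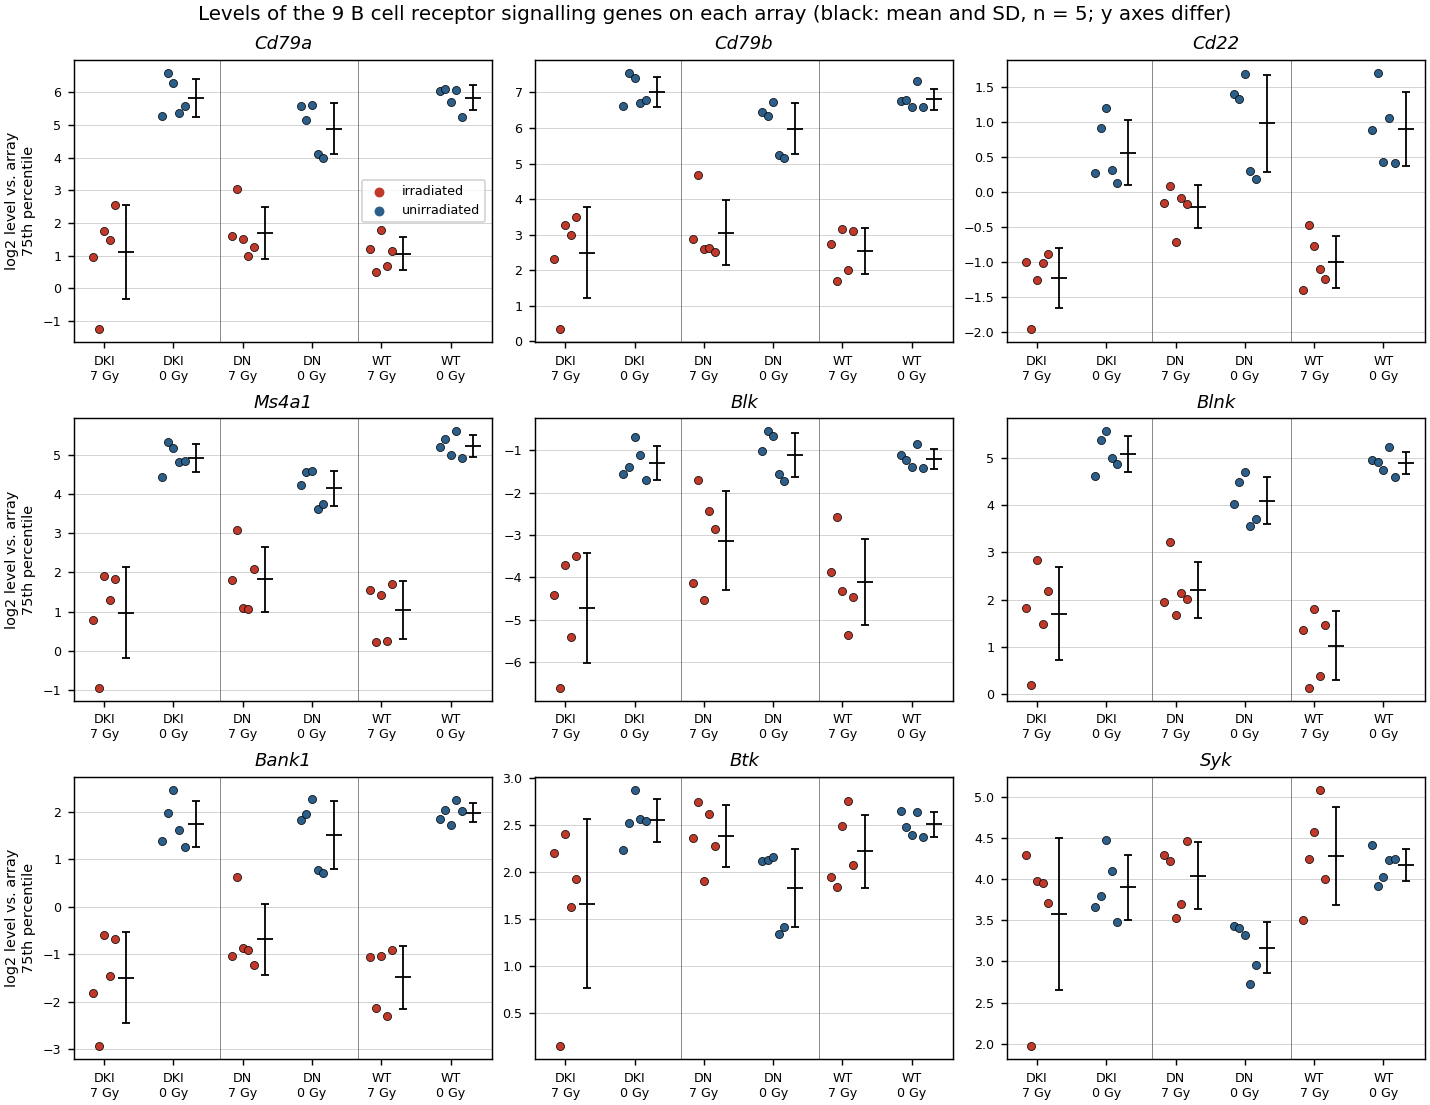
Each panel plots 1 of the 9 genes, with the log2 level relative to the array's 75th percentile on the y axis and the 6 groups on the x axis (DKI, DN and WT at 7 or 0 Gy). Points are arrays, black bars give the mean and SD over 5 arrays, and y axes differ between panels. The irradiated arrays lie below the unirradiated ones for Cd79a, Cd79b, Cd22, Ms4a1, Blnk and Bank1 in every genotype, and overlap them for Btk in every genotype and for Syk in p38DKI and p38WT.

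Cd79a encodes the Ig-alpha chain, and its probe lost more signal than that of any other member in each genotype. In p38DKI blood, Cd79a stood at 0.95, -1.26, 1.76, 1.48 and 2.56 on the irradiated arrays, against 5.28, 6.59, 6.27, 5.35 and 5.57 on the unirradiated arrays. In p38DN blood, Cd79a stood at 1.61, 3.03, 1.52, 0.99 and 1.26 on the irradiated arrays, against 5.57, 5.16, 5.61, 4.11 and 3.99 on the unirradiated arrays. In p38WT blood, Cd79a stood at 1.19, 0.49, 1.77, 0.69 and 1.15 on the irradiated arrays, against 6.05, 6.11, 5.69, 6.07 and 5.23 on the unirradiated arrays. No irradiated array reached the lowest unirradiated array of its genotype. Irradiated array 2 was the lowest in p38DKI and is the array with the most liver signal, and unirradiated arrays 4 and 5 were the lowest unirradiated ones in p38DN and also carried liver signal. Cd79a was 26.3-fold lower in irradiated p38DKI blood (log2 change -4.71, SE 0.50, adjusted p = 1.25e-07), 9.23-fold lower in irradiated p38DN blood (log2 change -3.21, SE 0.50, adjusted p = 2.92e-05) and 27.3-fold lower in irradiated p38WT blood (log2 change -4.77, SE 0.50, adjusted p = 9.59e-08). By log2 change it was 17th from the bottom of the 18724 genes in p38DKI, 124th in p38DN and 15th in p38WT. The second Cd79a probe, printed above, changed by -4.61 in p38DKI, -2.87 in p38DN and -4.52 in p38WT. That probe was well above background on 4 of 5 irradiated arrays in p38DKI, all 5 in p38DN and 2 of 5 in p38WT. Its p38WT change is therefore loosely fixed.

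Cd79b encodes Ig-beta, the partner of Ig-alpha, and followed Cd79a closely. In p38DKI blood, Cd79b stood at 2.33, 0.34, 3.26, 3.0 and 3.51 on the irradiated arrays, against 6.63, 7.55, 7.41, 6.70 and 6.78 on the unirradiated arrays. In p38DN blood, Cd79b stood at 2.87, 4.67, 2.61, 2.62 and 2.52 on the irradiated arrays, against 6.46, 6.33, 6.72, 5.25 and 5.16 on the unirradiated arrays. In p38WT blood, Cd79b stood at 2.74, 1.70, 3.15, 2.02 and 3.11 on the irradiated arrays, against 6.77, 6.78, 6.59, 7.31 and 6.60 on the unirradiated arrays. The groups did not overlap in any genotype, and p38DN irradiated array 2 stood above the other 4 of its group. Cd79b was 23-fold lower in irradiated p38DKI blood (log2 change -4.52, SE 0.47, adjusted p = 1.24e-07), 7.6-fold lower in irradiated p38DN blood (log2 change -2.93, SE 0.47, adjusted p = 4.81e-05) and 19.2-fold lower in irradiated p38WT blood (log2 change -4.26, SE 0.47, adjusted p = 2.72e-07).

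The coreceptors differed in size of change. Ms4a1, which encodes CD20, fell in all 3 genotypes. In p38DKI blood, Ms4a1 stood at 0.77, -0.95, 1.90, 1.30 and 1.82 on the irradiated arrays, against 4.43, 5.34, 5.17, 4.82 and 4.85 on the unirradiated arrays. In p38DN blood, Ms4a1 stood at 1.80, 3.09, 1.10, 1.07 and 2.08 on the irradiated arrays, against 4.23, 4.56, 4.59, 3.61 and 3.76 on the unirradiated arrays. In p38WT blood, Ms4a1 stood at 1.56, 0.21, 1.43, 0.25 and 1.71 on the irradiated arrays, against 5.22, 5.42, 5.01, 5.61 and 4.92 on the unirradiated arrays. The irradiated arrays lay below all unirradiated ones in each genotype, and p38DKI irradiated array 2 was again the lowest. The change of Ms4a1 was 15.5-fold in p38DKI (log2 change -3.95, SE 0.43, adjusted p = 2.18e-07), 5-fold in p38DN (log2 change -2.32, SE 0.43, adjusted p = 0.00021) and 18.4-fold in p38WT (log2 change -4.21, SE 0.43, adjusted p = 7.39e-08), all downward.

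Cd22, the inhibitory lectin-like coreceptor, had the smallest fall among the 7 members called lower in every genotype. Its levels in p38DKI lay between -1.96 and -0.89 on the irradiated arrays, against between 0.13 and 1.20 on the unirradiated arrays. In p38DN they lay between -0.72 and 0.08 on the irradiated arrays, against between 0.18 and 1.69 on the unirradiated arrays. In p38WT they lay between -1.40 and -0.47 on the irradiated arrays, against between 0.41 and 1.70 on the unirradiated arrays. The groups were apart in all 3 genotypes, by a narrow margin in p38DN. Cd22 fell 3.46-fold in p38DKI (log2 change -1.79, SE 0.30, adjusted p = 7.76e-05), 2.28-fold in p38DN (log2 change -1.19, SE 0.30, adjusted p = 0.00381) and 3.71-fold in p38WT (log2 change -1.89, SE 0.30, adjusted p = 4.32e-05). A second Cd22 probe, made for an Ensembl transcript, was the 1 probe of the 14 that did not pass the filter: it was well above background on 2 of 5 arrays at most in any group, so it gave no change.

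Blk is the Src family kinase of the B lineage, and its probe was dim. In p38DKI blood, Blk stood at -4.42, -6.61, -3.70, -5.41 and -3.50 on the irradiated arrays, against -1.57, -1.39, -0.68, -1.12 and -1.69 on the unirradiated arrays. In p38DN blood, Blk stood at -4.13, -1.70, -4.53, -2.43 and -2.87 on the irradiated arrays, against -1.02, -0.55, -0.67, -1.57 and -1.72 on the unirradiated arrays. In p38WT blood, Blk stood at -3.87, -2.57, -4.33, -5.36 and -4.46 on the irradiated arrays, against -1.12, -1.24, -1.39, -0.84 and -1.42 on the unirradiated arrays. The probe was well above background on all 5 unirradiated arrays of each genotype, but on 1, 2 and 1 of the 5 irradiated arrays of p38DKI, p38DN and p38WT, so it passed the filter through the unirradiated groups and its irradiated levels, with the folds and SEs that rest on them, are loosely fixed. Irradiated and unirradiated arrays overlapped in p38DN. Blk was 10.9-fold lower in p38DKI (log2 change -3.44, SE 0.53, adjusted p = 2.70e-05), 4.06-fold lower in p38DN (log2 change -2.02, SE 0.53, adjusted p = 0.00492) and 7.55-fold lower in p38WT (log2 change -2.92, SE 0.53, adjusted p = 0.00019). With normexp background correction, which adds an offset of 50 to the signal, the p38WT change of Blk was -0.19 and no longer passed (adjusted p = 0.518).

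Blnk, the adaptor that links Syk to Btk and phospholipase C gamma, fell with the receptor chains. In p38DKI blood, Blnk stood at 1.82, 0.19, 2.83, 1.49 and 2.19 on the irradiated arrays, against 4.63, 5.39, 5.57, 5.01 and 4.87 on the unirradiated arrays. In p38DN blood, Blnk stood at 1.95, 3.23, 1.68, 2.15 and 2.01 on the irradiated arrays, against 4.02, 4.49, 4.71, 3.57 and 3.70 on the unirradiated arrays. In p38WT blood, Blnk stood at 1.35, 0.13, 1.79, 0.38 and 1.47 on the irradiated arrays, against 4.97, 4.92, 4.75, 5.23 and 4.61 on the unirradiated arrays. Irradiated and unirradiated arrays did not overlap, although p38DN irradiated array 2 came close to the lowest unirradiated array. Blnk was 10.5-fold lower in p38DKI (log2 change -3.39, SE 0.38, adjusted p = 3.17e-07), 3.72-fold lower in p38DN (log2 change -1.90, SE 0.38, adjusted p = 0.000463) and 14.6-fold lower in p38WT (log2 change -3.87, SE 0.38, adjusted p = 3.43e-08).

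Bank1, the scaffold protein of B cells, was read by a pair of probes. The levels of the first in p38DKI lay between -2.94 and -0.59 on the irradiated arrays, against between 1.27 and 2.47 on the unirradiated arrays. In p38DN they lay between -1.23 and 0.62 on the irradiated arrays, against between 0.72 and 2.27 on the unirradiated arrays. In p38WT they lay between -2.31 and -0.91 on the irradiated arrays, against between 1.72 and 2.25 on the unirradiated arrays. The groups were apart in each genotype, and p38DN irradiated array 2 stood above the other irradiated arrays. Bank1 was 9.46-fold lower in p38DKI (log2 change -3.24, SE 0.41, adjusted p = 1.85e-06), 4.59-fold lower in p38DN (log2 change -2.20, SE 0.41, adjusted p = 0.000224) and 11.1-fold lower in p38WT (log2 change -3.47, SE 0.41, adjusted p = 6.92e-07). Its second probe, printed above, changed by -2.78, -2.22 and -3.22 in the same order of genotypes.

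Btk, the Tec family kinase whose loss blocks B cell development in humans, did not share this fall. In p38DKI blood, Btk stood at 2.21, 0.15, 2.41, 1.63 and 1.93 on the irradiated arrays, against 2.24, 2.53, 2.88, 2.57 and 2.55 on the unirradiated arrays. In p38DN blood, Btk stood at 2.37, 2.75, 1.91, 2.62 and 2.28 on the irradiated arrays, against 2.12, 2.13, 2.16, 1.34 and 1.42 on the unirradiated arrays. In p38WT blood, Btk stood at 1.95, 1.84, 2.49, 2.76 and 2.08 on the irradiated arrays, against 2.65, 2.48, 2.40, 2.64 and 2.38 on the unirradiated arrays. The groups overlapped in every genotype, and p38DKI irradiated array 2 lay far below the rest. Btk was called lower in p38DKI (log2 change -0.89, SE 0.29, adjusted p = 0.0226), 0.63 below the median change of all genes there, and was not called in p38DN (log2 change 0.55, SE 0.29, adjusted p = 0.162) or p38WT (log2 change -0.28, SE 0.29, adjusted p = 0.519). The p38DKI call ended without irradiated array 2 (log2 change -0.51, adjusted p = 0.0834), without unirradiated array 3 (log2 change -0.80, adjusted p = 0.0511) and with scaling to the array median (log2 change -0.47, adjusted p = 0.245). Median scaling was 1 of 7 alternatives that ended it, of 17 other than leaving out 1 array. Over those 17 the log2 change ran from -0.98 to -0.26. The second Btk probe, printed above, was called lower in p38DKI as well (log2 change -0.98, adjusted p = 0.00901 over all kept probes, of which 18.9% were called lower there, 10.3% in p38DN and 11.9% in p38WT) and not in p38DN (0.65) or p38WT (-0.04).

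Syk, the kinase that docks on the phosphorylated chains, was the member least like the rest. In p38DKI blood, Syk stood at 4.30, 1.97, 3.98, 3.95 and 3.71 on the irradiated arrays, against 3.66, 3.80, 4.48, 4.10 and 3.48 on the unirradiated arrays. In p38DN blood, Syk stood at 4.30, 4.22, 3.53, 3.70 and 4.47 on the irradiated arrays, against 3.43, 3.41, 3.32, 2.72 and 2.96 on the unirradiated arrays. In p38WT blood, Syk stood at 3.51, 4.25, 4.58, 5.09 and 4.0 on the irradiated arrays, against 4.42, 3.92, 4.03, 4.23 and 4.25 on the unirradiated arrays. All irradiated arrays lay above the unirradiated ones in p38DN, and the groups overlapped in p38DKI and p38WT. Syk was called higher in irradiated p38DN blood, 1.84-fold (log2 change 0.88, SE 0.33, adjusted p = 0.0453), and was not called in p38DKI (log2 change -0.32, SE 0.33, adjusted p = 0.45) or p38WT (log2 change 0.12, SE 0.33, adjusted p = 0.834). The p38DN call ended when any of 7 of the 10 p38DN arrays was left out (irradiated arrays 1, 2 and 5 and unirradiated arrays 2, 3, 4 and 5, adjusted p from 0.0550 to 0.108), while the log2 change itself stayed between 0.77 and 1.01, and it ended without the 4 arrays highest in liver markers (log2 change 0.67, adjusted p = 0.123). The latter was 1 of 9 alternatives that ended the call, of 17 other than leaving out 1 array. Over those 17 the log2 change ran from 0.5 to 1.18. The sign of the p38WT change turned without irradiated array 4 (-0.08) and that of the p38DKI change without irradiated array 2 (0.08). A second, dimmer Syk probe for an Ensembl transcript changed by 0.34 in p38DKI, 1.48 in p38DN and 0.54 in p38WT, and passed in p38DN (adjusted p = 0.0314 over all kept probes), where it was well above background on none of the 5 unirradiated arrays.

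**Figure D2:**
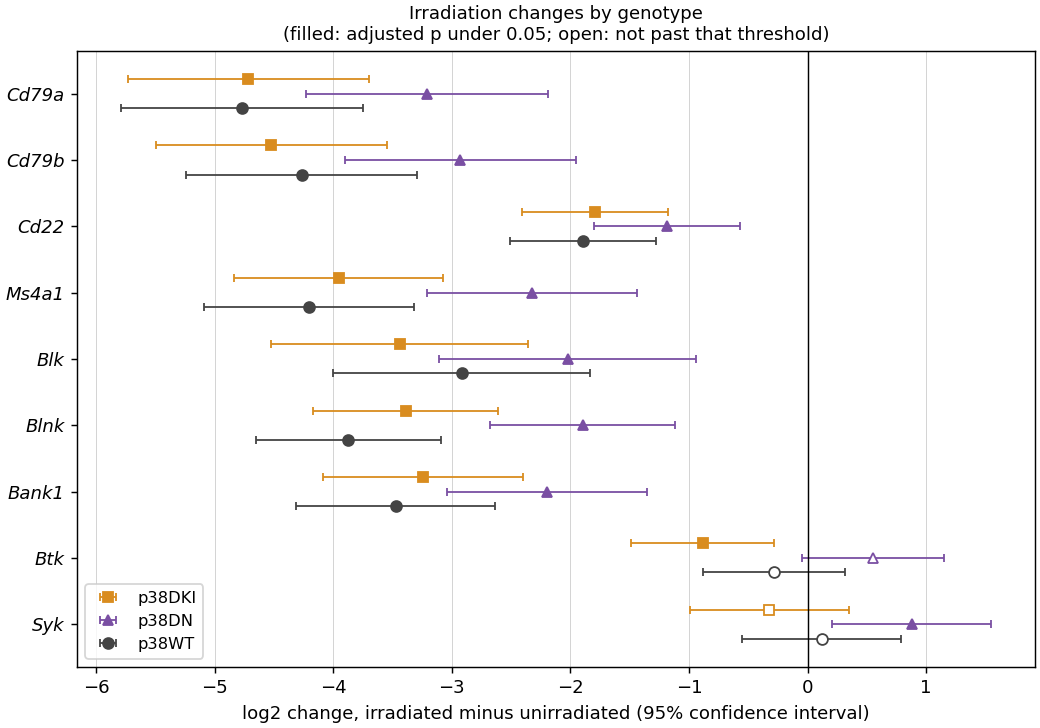
The log2 change of each gene (x axis, irradiated minus unirradiated, with its 95% confidence interval) is plotted by genotype, filled where the adjusted p was under 0.05 and open otherwise. The 7 genes from Cd79a to Bank1 lie left of 0 in all 3 genotypes, between -4.77 and -1.19, and Btk and Syk lie between -0.89 and 0.88.

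The irradiated arrays lay wholly below the unirradiated ones for 7 members in p38DKI, 6 in p38DN and 7 in p38WT, where 12.5%, 7.67% and 11.4% of all genes did so in the same 3 genotypes. With normexp background correction none of the 9 members was called in p38DN, though the 7 falls kept their direction (from Cd79b -2.19, adjusted p = 0.109, and Cd79a -2.14, adjusted p = 0.0869, to Cd22 -0.61, adjusted p = 0.259, and Blk -0.38, adjusted p = 0.616). With that correction 7 members were called in p38DKI and 6 in p38WT. Without the 4 arrays highest in liver markers, 3 of which are p38DN unirradiated arrays, the p38DN change was -3.91 for Cd79a and -3.53 for Cd79b, and 7 members were called lower in each genotype. Over all genes, scaling to the array median moved the median change in p38DKI to 0.17 and the split of calls there to 3791 higher and 1280 lower, against 2261 higher and 3606 lower with the 75th percentile. The members called lower in p38DKI were then 7, without Btk.

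Values within single slides were set beside these. In p38DN each slide held 1 irradiated and 1 unirradiated array, and Cd79a fell by 2.13 to 4.10 and Ms4a1 by 1.47 to 3.49 on the 5 slides, while Syk was higher on all 5, by 0.21 to 1.51. In p38DKI the slide with 1 irradiated and 3 unirradiated arrays gave changes of -4.78 for Cd79a, -1.55 for Cd22, -0.45 for Btk and 0.27 for Syk. In p38WT the slide with 3 irradiated arrays and 1 unirradiated array gave -4.08 for Cd79a, -1.29 for Cd22, -0.29 for Btk and -0.14 for Syk. With slide as a fixed block, 5 members were called lower in p38DKI and 5 in p38WT, Cd22 and Blk no longer passing in either and Btk no longer in p38DKI (Cd22 adjusted p = 0.146 in p38DKI and 0.387 in p38WT). The Blk change in that fit was -3.25 in p38DKI (adjusted p = 0.0660) and -2.17 in p38WT (adjusted p = 0.382). In p38DN the 7 falls stayed called and Syk did not pass (adjusted p = 0.0659).

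The shift of Syk and Btk against Cd79a was also taken within each array, where the scaling of the array drops out. The difference Syk minus Cd79a was higher on irradiated arrays by 4.39 in p38DKI, 4.08 in p38DN and 4.89 in p38WT. The difference Btk minus Cd79a was higher by 3.83, 3.76 and 4.49 in the same 3 genotypes. In each of the 6 cases all 5 irradiated arrays lay above all 5 unirradiated ones. These shifts restate the separate changes of the 3 genes on a scale free of array scaling, and no test is given, since the genes were chosen with their changes known. On p38DKI irradiated array 2 the shift was 5.14 for Syk and 4.66 for Btk, against 3.06 to 5.25 for Syk and 2.63 to 4.52 for Btk on the other irradiated arrays of that genotype, so the array that was lowest for both Cd79a and Syk was not apart from its group in their difference.

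**Figure D3:**
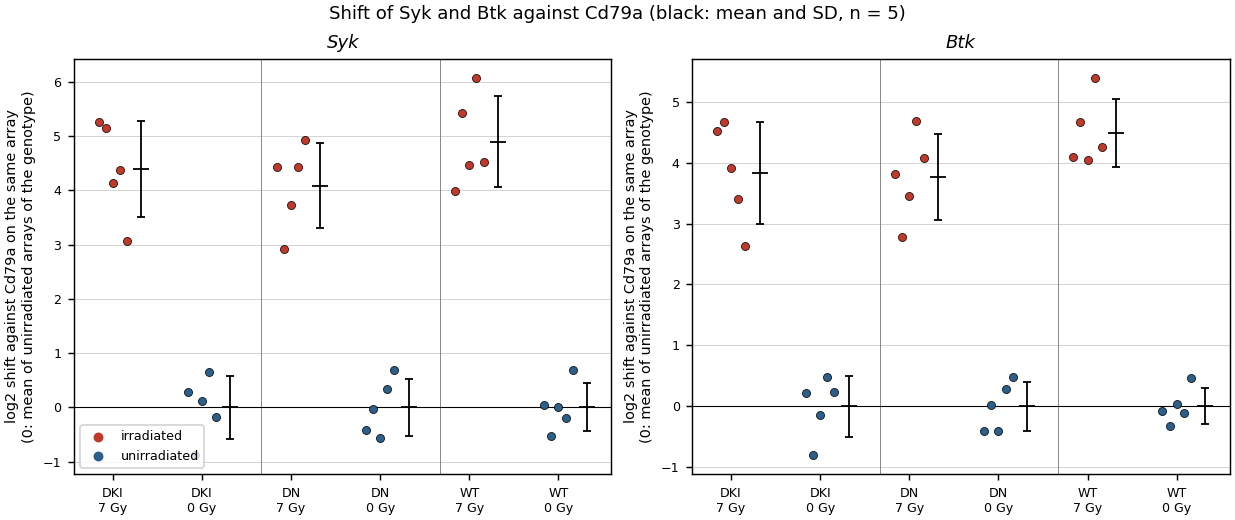
The log2 difference Syk minus Cd79a (left) and Btk minus Cd79a (right) on each array is plotted by group, with 0 set at the mean of the unirradiated arrays of the same genotype. Points are arrays and black bars the mean and SD over 5 arrays. Irradiated arrays lie above unirradiated ones in every genotype, with mean shifts of 3.76 to 4.89.

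The irradiation changes were then compared between genotypes. For p38DKI against p38WT none of the 9 differences of changes was called (1 gene of 18724 was, 0.00534%), and none of the 9 had an unadjusted p under 0.05. They ranged from -0.60 to 0.48, with 5 positive and 4 negative, and their 95% intervals reached from -2.06 to 1.59, so differences of that size lie within the error. For p38DN against p38WT none of the 9 was called (1.64% of all genes were), but 4 had an unadjusted p under 0.05, namely Blnk, Ms4a1, Cd79a and Bank1, where 19% of all genes did. All 9 differences were positive, as were 54.9% of those of all genes, with a median of 1.28 against 0.08 over all genes. Blnk fell less in p38DN by 1.98 (95% interval 0.88 to 3.08, adjusted p = 0.0546), Ms4a1 by 1.88 (0.63 to 3.13, adjusted p = 0.0938) and Cd79a by 1.57 (0.12 to 3.01, adjusted p = 0.225). Both comparisons share the p38WT arrays and the members move together, so the 9 signs are not 9 separate observations.

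The p38DN difference moved with other measures. Without the 4 arrays highest in liver markers (p38DKI irradiated array 2 and p38DN unirradiated arrays 2, 4 and 5), the median of the 9 differences was 0.73, that of Blnk 1.71 (adjusted p = 0.0700) and that of Cd79a 0.86 (adjusted p = 0.409). With the mean of the liver markers as a covariate, an alternative chosen after seeing the data, the median was 0.63 and Blnk differed by 1.47 (adjusted p = 0.0866). Blnk passed under other settings, such as slide as a random block (2.0, adjusted p = 0.0409) and each fit without p38DN irradiated array 1 (adjusted p = 0.0497), p38DN irradiated array 3 (0.0440) or p38WT irradiated array 3 (0.0385). Since p38DN was scanned in an earlier period, genotype and scan period cannot be told apart in any level set across them, and the difference of changes was not tested apart from it.

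**Figure D4:**
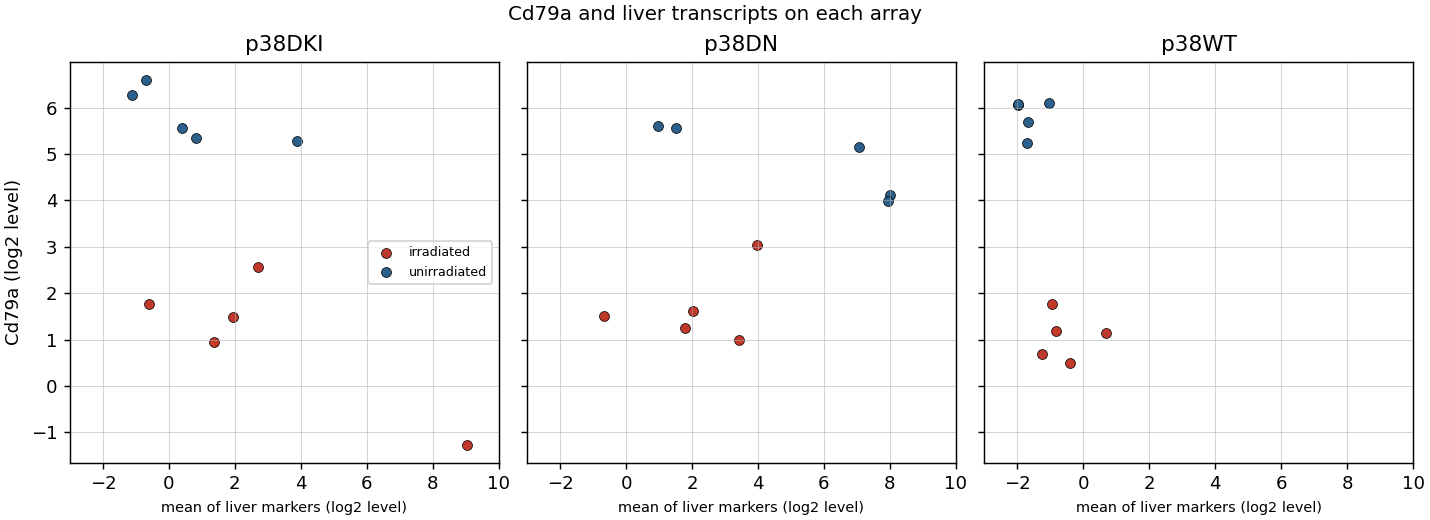
The log2 level of Cd79a (y axis) is plotted against the mean log2 level of 13 liver transcripts (x axis) for each array, by genotype. Irradiated and unirradiated arrays stay apart on the y axis in each panel, the p38DKI irradiated array at 9.04 on the x axis is the lowest for Cd79a, and p38DN unirradiated arrays 4 and 5, at 8.0 and 7.95, are the lowest unirradiated arrays of that genotype.

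Levels before and after irradiation are given side by side. On unirradiated arrays Cd79a averaged 4.89 ± 0.79 in p38DN and 5.83 ± 0.38 in p38WT, Ms4a1 4.15 ± 0.45 in p38DN and 5.24 ± 0.29 in p38WT, and Syk 3.17 ± 0.31 in p38DN and 4.17 ± 0.20 in p38WT. No test was made on these pairs because of the scan periods. Between p38DKI and p38WT, scanned in 1 period but with the groups compared on different slides, so that genotype and slide cannot be told apart, none of the 9 members differed in level past the threshold in unirradiated blood (0.101% of all genes did, and no member had an unadjusted p under 0.05), with differences of -0.33 to 0.20 and 95% intervals within -1.20 to 1.18. In irradiated blood none was called either (4.51% of all genes were), with differences of -0.70 to 0.68 and intervals within -1.70 to 1.46, and Syk alone had an unadjusted p under 0.05 (difference -0.70, adjusted p = 0.182), where 24.7% of all genes did. With slide as a fixed block, which rests on the slides that link other groups, the unirradiated differences ran from -0.95 for Syk to 1.27 for Blk, and none was called. These intervals leave room for a difference of about 1 log2 unit or more for most members.

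How the members moved together over the 30 arrays is a description, since all share the arrays, their scaling and the dose groups. Pearson's r with Cd79a was 0.99 for Cd79b, 0.98 for Ms4a1, 0.98 for Bank1, 0.97 for Blnk, 0.88 for Blk and 0.88 for Cd22, but 0.44 for Btk and 0.03 for Syk. With each group's mean taken off it was 0.96 for Cd79b, 0.88 for Ms4a1, 0.88 for Bank1, 0.84 for Blnk, 0.73 for Btk, 0.65 for Cd22, 0.57 for Blk and 0.54 for Syk. Btk and Syk were closer to each other than to Cd79a, with r of 0.79 over all arrays and 0.84 within groups. Cd79b was the gene nearest to Cd79a of all tested, by either measure. Outside the members the nearest genes included Bcl11a, Spib, H2-Oa and Pou2af1 (r from 0.98 to 0.99), and within groups B3gnt5, Bfsp2, Spib and H2-Oa (r from 0.91 to 0.94).

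Further genes of the pathway were taken as a list of 42, of which 38 were tested. In p38DKI 2 were higher and 12 lower, in p38DN 11 higher and 8 lower, and in p38WT 4 higher and 12 lower, against the shares of all genes given above and 12.1% of all genes higher in p38DKI and 15.0% in p38WT. The split of calls over all genes in p38DN moved with the arrays and the scaling: it was 3291 higher and 1937 lower, against 2612 higher and 2831 lower without the 4 arrays highest in liver markers, 2690 higher and 2814 lower with the percentile taken from probes that every array detected, and 2301 higher and 2547 lower with the deposited values. The pathway list was not counted again under these settings. The median change of the list was -0.42 in p38DKI, 0.22 in p38DN and -0.13 in p38WT. Many of these genes also act in T cells, myeloid cells or platelets.

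Of this list Lyn, Plcg2, Pik3ap1, Ptpn6, Inpp5d and Prkcb are named by rule, and the others were picked after their values were seen. The inhibitory receptors Siglecg and Cd72 were called lower in all 3 genotypes, by -3.56 and -2.36 in p38DKI, -1.89 and -2.35 in p38DN and -3.14 and -1.58 in p38WT. Fcgr2b, the inhibitory Fc receptor of B cells and myeloid cells, was called lower in p38WT (-1.26), and its change was -0.25 in p38DKI (adjusted p = 0.611) and 0.77 in p38DN (adjusted p = 0.125). Of protein kinase C beta and the module downstream of it, Prkcb (-1.24, -0.91 and -1.0) and Malt1 (-1.54, -0.91 and -0.88) were called lower in p38DKI, p38DN and p38WT alike, whereas Bcl10, the partner of Malt1, was called higher in p38DN (0.97) and in neither of the others (0.53 in p38DKI and 0.79 in p38WT). Plcg2, the phospholipase that Blnk and Btk activate, was called lower in p38DKI (-1.08, adjusted p = 0.0173) and p38WT (-0.92, adjusted p = 0.0459), and its change in p38DN was -0.24 (adjusted p = 0.644).

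Lyn, the Src family kinase shared by B cells and myeloid cells, went the other way from Blk. It was called higher in p38DKI (0.85, adjusted p = 0.0279) and p38DN (1.15, adjusted p = 0.00381), and its change in p38WT was 0.46 (adjusted p = 0.262). The phosphatase genes that restrain the pathway differed: Inpp5d, which encodes the lipid phosphatase SHIP, was called higher in p38DN (1.30, adjusted p = 0.00116), with 0.19 in p38DKI and 0.45 in p38WT, and Ptpn6, which encodes SHP-1, was called lower in p38DKI (-0.83, adjusted p = 0.0196), with -0.40 in p38DN and -0.31 in p38WT. Cd81, Stim1, Fyn and Dapp1 were called higher in p38DN (1.31, 1.59, 1.5 and 1.55) and in p38WT (0.98, 0.82, 0.96 and 0.99), and of these Cd81 alone in p38DKI (1.15). Pik3ap1, Vav2, Sos1 and Pag1, also listed, did not pass the filter on dim probes.

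Markers of other blood cells were counted over the same arrays. Of all genes 12.1% were called higher in p38DKI, 17.6% in p38DN and 15.0% in p38WT. The shares called lower were 19.3%, 10.3% and 12.1% in the same order, and a single call in a list does not stand out from these shares. Neutrophil markers were called higher for 8 of 10 in p38DKI (group ranges of the mean level 3.05 to 4.67 irradiated and 2.14 to 2.94 unirradiated), 1 of 10 in p38DN (2.41 to 3.82 and 2.28 to 2.98) and 10 of 10 in p38WT (4.97 to 5.50 and 2.38 to 4.12). Platelet markers were called higher for 2 of 8 in p38DKI, 8 of 8 in p38DN and 7 of 8 in p38WT. T cell markers were called lower for 7 of 12 in p38DKI, 3 of 12 in p38DN and 4 of 12 in p38WT, and 1 of 12 was called higher in p38DN. NK cell markers were called higher for 2 of 7 in p38DKI, none in p38DN and 5 of 7 in p38WT. Red cell markers were called lower for 5 of 7 in p38DKI, 4 of 7 in p38DN and 3 of 7 in p38WT. Monocyte markers were called higher for 2 of 7 in p38DKI, 3 of 7 in p38DN and 1 of 7 in p38WT, and lower for 1 of 7 in each. The 14 B cell markers were called lower for 14 in p38DKI, 13 in p38DN and 13 in p38WT, with median changes of -3.99, -2.42 and -4.10. The part of these cell types in the levels of Syk, Btk and the shared pathway genes was not tested.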

How the data were processed

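RNA of 30 mouse blood samples was hybridised to 1-colour Agilent arrays, 5 arrays in each of 6 groups. Per the file headers the deposited scanner files hold an intensity for each spot, from Agilent Feature Extraction, already background-subtracted, on an array annotated with mm9. The deposited value table holds log2 values; set against the scanner files at least 98.7% of its values on each array lie within 0.01 of the log2 intensity minus 1 constant per array. It was used as an alternative, and there Btk, Syk and Bank1 are read by another probe than the one used here.

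From the processed intensity, flagged spots were left out, spots of a probe averaged on the log2 scale, and the 75th percentile of each array subtracted. Probes well above background on at least 4 of 5 arrays of a group and with a value on at least 20 arrays were kept (23614 of 39429), and the brightest stood for its gene, giving 18724 genes. Of the probes, 29056 were named by accession, 3150 by symbol and 116 by synonym, and 7107 kept the array's name. Between 39.24% and 63.22% of probes were well above background on an array, and the 75th percentile of intensity was 43.3 to 230.4. limma 3.58.1 in R 4.3.3 fitted the 6 group means over all arrays, with Benjamini-Hochberg adjustment. Within-array differences of Syk and Btk from Cd79a are given without the exact permutation test planned for them, since the genes were chosen with their changes known.

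All 9 members are named. Other genes are named from the pathway and marker lists or as the 5 most like Cd79a by Pearson's r. Some genes that this rule names are not reported here. The members and lists were chosen with earlier results of these data known. Tested on simulated data for the p38WT comparison with 18724 genes, the fit called 6%, 42%, 80% and 98% of genes changed by 0.5, 1, 2 and 4 log2 units. Only 50 genes were changed at each size, with independent noise, whereas 5076 genes were called in the data. These rates therefore do not measure the power of the fit on the data. Alternatives covered background, scaling, filters, probe choice, slides, the replicate block and each array left out.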

Additional observations from a re-analysis of the deposited data

Results flagged for a closer look

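Of 66 groups of 5 arrays examined for a single array far from the other 4, 4 were found, and chance gives about 1 in 20. In irradiated p38DN blood, array 2 had the highest Cd79b level, 4.67, with the other 4 arrays between 2.52 and 2.87. The same array had the highest Bank1 level, 0.62, with the others between -1.23 and -0.88. In irradiated p38DKI blood, array 2 had the lowest Syk level, 1.97, with the others between 3.71 and 4.30, and this array also had the highest liver marker mean, 9.04. In unirradiated p38WT blood, array 4 had the highest Cd79b level, 7.31, with the others between 6.59 and 6.78.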

How the results depend on the processing

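Over 49 results and 48 alternatives, of which 30 left out 1 array each, 1306 of 1379 values kept direction and side of the threshold or moved little. That count leaves out the per-gene differences between p38DKI and p38WT. Among those the sign turned in 29 of 333 values for the difference of changes. It turned in 31 of 243 values for unirradiated and 46 of 243 for irradiated blood, and none of these values was called. The count of members called changed by more than 1.5 times in p38DN with normexp background correction (0 members) and in p38DKI with slide as a fixed block (5 members). For the difference p38DN minus p38WT it was 2 without scaling, and 1 with the percentile taken from probes that every array detected, with the compared genotypes alone, with slide as a random block and with a trended robust variance, and 0 to 1 when 1 array was left out. Syk changed sign in p38WT with normexp (-0.66), no scaling (-0.31), that other percentile (-0.08), quantile normalization (-0.06) and the slide block (-0.14), and ranged from -0.08 to 0.31 with 1 array left out. In p38DKI it changed sign with median scaling (0.10), no scaling (0.30), the mean of a gene's probes (0.01), the deposited values (0.04), the slide block (0.27) and without the 4 arrays highest in liver markers (0.08), and ranged from -0.50 to 0.08 with 1 array left out. Btk in p38WT was 0.02 with the deposited values, and the Blk difference p38DN minus p38WT was -0.18 with normexp. The deposited values read Btk and Syk by another probe, so probe and values changed together there. The causes were not tested. The labels give replicate numbers but correlations of same-numbered samples ran from -0.214 to 0.411, so the numbers were not taken to pair the samples; with the replicate block 8 members were called lower in p38DKI, 7 in p38DN and 7 in p38WT, and Syk in p38DN did not pass (adjusted p = 0.0505). Over all genes, the slide block left 163 calls in p38WT and 683 in p38DKI, and normexp 1335 in p38WT, 1379 in p38DKI and 436 in p38DN, against 5076, 5867 and 5228. Without scaling the calls were 840 higher and 3379 lower in p38WT and 3819 higher and 759 lower in p38DKI. Signal near background limits Blk on irradiated arrays, and the second Cd79a probe on irradiated p38WT arrays.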
